A study of Mus musculus with 2 samples.

Results

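Cycling cells of the mouse liver were examined in 1 single-cell library, WT replicate 1, by droplet-based 3′ RNA sequencing. A cell was taken as cycling if at most 20% of its unique molecular identifiers (UMIs, counts of single RNA molecules) were mitochondrial and if Top2a, Ube2c, Pclaf, Birc5, Cenpf, Nusap1, Ccna2, Prc1, Mki67 and Rrm2 together had at least 10 UMIs. This gave 104 cycling cells of the 6765 cells that passed the mitochondrial limit (1.54%, 95% interval 1.26 to 1.86, exact binomial). A cell with a sum of 0 over these 10 genes was taken as non-cycling, which held for 6217 cells, and the 444 cells with 1 to 9 UMIs entered neither side. The series holds 9703 cells in 2 libraries of 1 group, both from liver of 8-week-old C57BL/6 mice labelled WT, dissociated with enzymes and spun on Percoll. No treatment that differs between the libraries is named, and the labels do not say whether the libraries come from separate animals.

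WT replicate 1 had 40645060 UMIs in 7362 cells, of which the mitochondrial limit removed 597, among them 3 with a sum of at least 10. WT replicate 2 had 11867207 UMIs in 2341 cells, of which the limit removed 0. Its cells had 1263 to 13401 UMIs, against 503 to 66125 in the kept cells of WT replicate 1. Cell identities were not read in WT replicate 2, so its share is for the library as a whole and not for any identity. None of its cells reached 10 UMIs (highest sum 4). This allows a share of up to 0.128% by the limit of 3 cells of the total (exact upper bound 0.157%). All values below therefore come from 1 library: no replicate error could be formed, no test was run, and each 95% interval is exact and covers counting error only. The library endings shared 5 cell barcodes, which were read as separate cells.

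Cells that divide first copy their genome and then segregate it. Licensing factors such as the MCM helicase subunits load onto replication origins, E2F transcription factors switch on genes for DNA synthesis, and later a complex that recognises the CHR element, together with NF-Y at CCAAT boxes, drives genes for mitosis. In the adult liver most cells rest. Kupffer cells, the resident macrophages of the sinusoids, renew by local division, sinusoidal endothelial cells line the same channels, and lymphocytes divide after activation.

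The motifs named above stand in promoters of genes that the results below turn on and that the choice of cells did not use. The sequences are RefSeq promoters in GRCm38.p6, from 250 bases before to 50 bases after the transcription start, written along the gene. Capitals mark matches, on either strand, to the CHR element TTTGAA, the CCAAT box CCAAT, or the E2F element TTTCCCGC or TTTGGCGC. Plk1 (a mitotic kinase), Ccnb2 (a mitotic cyclin), Kif11 (a spindle kinesin), Mcm3 (a helicase subunit) and Pttg1 (securin, which holds back sister separation) are shown, the last because it stayed within 2-fold in Kupffer-like cells.
Plk1, chr7:122159185-122159484, plus strand: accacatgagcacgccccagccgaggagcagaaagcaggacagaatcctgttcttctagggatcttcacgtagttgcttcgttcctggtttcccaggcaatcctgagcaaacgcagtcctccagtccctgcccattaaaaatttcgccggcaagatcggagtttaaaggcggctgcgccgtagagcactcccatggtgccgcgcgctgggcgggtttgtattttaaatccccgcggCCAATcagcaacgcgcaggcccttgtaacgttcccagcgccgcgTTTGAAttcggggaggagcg
Ccnb2, chr9:70421505-70421804, minus strand: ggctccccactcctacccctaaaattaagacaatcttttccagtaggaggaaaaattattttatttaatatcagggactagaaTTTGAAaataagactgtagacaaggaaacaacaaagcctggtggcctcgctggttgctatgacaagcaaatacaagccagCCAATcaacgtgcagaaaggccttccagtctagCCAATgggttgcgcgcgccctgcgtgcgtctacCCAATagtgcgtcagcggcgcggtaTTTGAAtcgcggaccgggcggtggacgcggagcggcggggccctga
Kif11, chr19:37376132-37376431, plus strand: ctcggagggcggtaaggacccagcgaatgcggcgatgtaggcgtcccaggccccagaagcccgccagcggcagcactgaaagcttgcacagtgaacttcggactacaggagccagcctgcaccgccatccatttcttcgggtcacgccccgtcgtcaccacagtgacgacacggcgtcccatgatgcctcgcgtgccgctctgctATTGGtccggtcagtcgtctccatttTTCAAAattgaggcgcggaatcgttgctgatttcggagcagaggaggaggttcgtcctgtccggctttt
Mcm3, chr1:20820263-20820562, minus strand: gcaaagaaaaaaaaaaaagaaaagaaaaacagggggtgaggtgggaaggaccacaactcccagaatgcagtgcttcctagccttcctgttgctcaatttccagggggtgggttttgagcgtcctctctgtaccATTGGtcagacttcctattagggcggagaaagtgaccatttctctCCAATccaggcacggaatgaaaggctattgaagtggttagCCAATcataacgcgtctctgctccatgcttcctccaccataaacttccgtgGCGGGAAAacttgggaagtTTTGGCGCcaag
Pttg1, chr11:43425932-43426231, minus strand: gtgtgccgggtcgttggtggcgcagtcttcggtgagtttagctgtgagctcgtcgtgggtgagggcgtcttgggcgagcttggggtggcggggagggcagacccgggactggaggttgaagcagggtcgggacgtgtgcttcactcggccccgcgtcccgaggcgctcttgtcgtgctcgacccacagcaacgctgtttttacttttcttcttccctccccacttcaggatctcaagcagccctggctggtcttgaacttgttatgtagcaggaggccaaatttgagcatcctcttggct
Plk1 held a CCAAT box 14 bases before the start and a CHR element from base 31 after it. Ccnb2 held 3 CCAAT boxes, 87, 54 and 21 bases before the start, and a CHR element on each side of them. Kif11 held a CCAAT box 45 bases and a CHR element 19 bases before the start, both in the opposite orientation. Mcm3 held 3 CCAAT boxes and 2 E2F elements, the latter at bases 20 and 39 after the start, and Pttg1 held none of the motifs in this window.

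Across the 77 promoters of the 70 matched genes in the mitosis lists (81 genes of kinetochore, spindle and checkpoint), 57.1% held a CHR element, 74.0% a CCAAT box and 45.5% both. The share of all 32851 RefSeq promoters of the same length was 17.9% for the CHR element, 37.4% for the CCAAT box and 6.95% for both. The E2F element stood in 35.5% of the 31 promoters of the replication list (27 of 36 genes matched), in 5.19% of the mitosis promoters and in 1.56% of all promoters. A CHR element stood in 12.9% of the replication promoters. A match describes letters in the window and was not tested for binding, and these lists were drawn up from known cycle genes.

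The 10 genes of the rule gave a median sum of 38.5 UMIs in the 104 cells, with a highest sum of 143. The cells were selected on these values, which are given as a description only. Top2a, which untangles DNA, had 1012 UMIs in 100 of the 104 cells (median 8, highest 38), and Mki67, a protein coating mitotic chromosomes, had 701 UMIs in 97 cells (median 6). Pclaf, a partner of the replication clamp, had 674 UMIs in 94 cells. Ube2c, which feeds the anaphase-promoting complex, had 489 UMIs in 82 cells, and Birc5, a subunit of the chromosomal passenger complex, had 365 in 87. The sum was 8 in 5 cells and 9 in 4 cells just outside the threshold, and 10 in 2 cells and 11 in 4 cells just inside it.

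**Figure D1:**
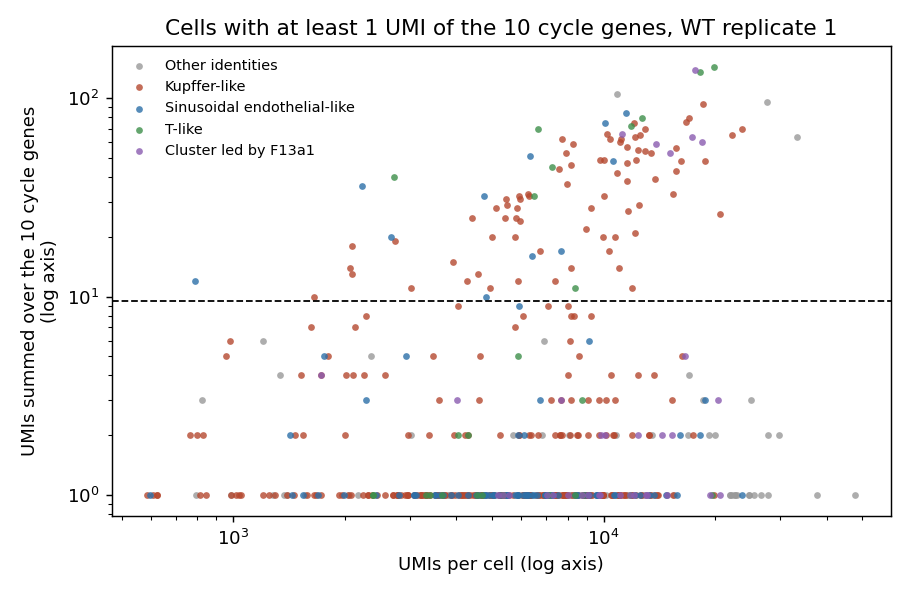
Each point is a cell of WT replicate 1 with at least 1 UMI of the 10 cycle genes; the x axis gives its UMIs and the y axis the sum over the 10 genes, both on log axes, with colours for identities. The 104 cycling cells lie at sums from 10 to 143, and the Kupffer-like ones among them have 1655 to 23697 UMIs per cell.

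Most cycling cells carried the markers of Kupffer cells. Each cell with a UMI of the rule genes took the class of most of its 15 nearest non-cycling cells, whose clusters were named from markers and formed without cell cycle genes. Of the 104 cells, 75 (72.1%, 62.5 to 80.5) were Kupffer-like, 11 sinusoidal endothelial-like and 9 T-like. A group of 6 was nearest to a cluster led by F13a1 and S100a4, which took the name monocyte-like from its non-cycling cells, but the markers of the 6 go against that name and it is not used for them. A further 2 fell to a cluster led by the stellate markers Colec10, Colec11 and Lrat, and 1 was vascular endothelial-like. All 15 neighbours had the same class for 97 cells, and the lowest agreement was 66.7%. Markers alone gave the same class to 95 cells, among them 74 of the 75 Kupffer-like cells and all 11 sinusoidal endothelial-like cells.

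The share of cycling cells differed between the abundant identities. It was 3.0% of 2503 Kupffer-like cells (2.36 to 3.74) and 0.476% of 2313 sinusoidal endothelial-like cells (0.238 to 0.849), and these intervals do not overlap. T-like cells had 3.86% of 233 (1.78 to 7.21) and cells nearest to the F13a1 cluster 3.80% of 158 (1.41 to 8.08), intervals that include the Kupffer-like share. No hepatocyte-like cell of 252 reached the threshold, which allows a share of up to 1.19% by 3 cells of the total and has an exact upper bound of 1.45%. The exact upper bounds were 2.04% for 179 mesothelial-like, 2.89% for 126 portal fibroblast-like and 3.18% for 114 cholangiocyte-like cells, which also had 0. B-like, plasmacytoid dendritic-like, neutrophil-like and smooth muscle-like cells had 0 with exact upper bounds from 8.22% to 17.6% at 43 cells or fewer.

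Cycling cells held more RNA molecules, and a cell of many UMIs reaches the threshold more easily. The median was 9963 UMIs in cycling and 3672 in non-cycling Kupffer-like cells, 6345 and 4669 in sinusoidal endothelial-like cells, and 8363 and 3309 in T-like cells. With every cell thinned to 2000 UMIs and a threshold of 4, the share was 3.92% (3.09 to 4.88) in Kupffer-like, 0.512% (0.246 to 0.940) in sinusoidal endothelial-like and 4.23% (1.95 to 7.87) in T-like cells. Their order was the same as without thinning. Among hepatocyte-like cells 1 of the 128 that were deep enough then reached the threshold (0.781%, 0.0198 to 4.28). Thinning left out 588 Kupffer-like, 360 sinusoidal endothelial-like and 20 T-like cells that had fewer UMIs.

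**Figure D2:**
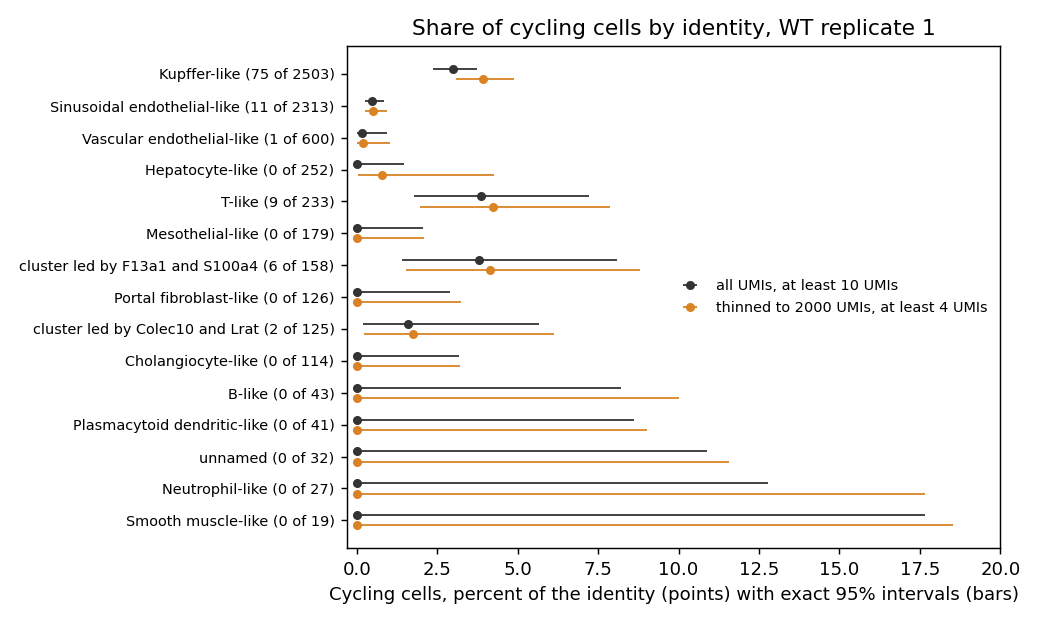
The x axis gives the share of cycling cells in percent for each identity, with exact 95% binomial intervals; black points use all UMIs and orange points cells thinned to 2000 UMIs. Kupffer-like cells (3.0%), T-like cells (3.86%) and cells nearest to the F13a1 cluster (3.80%) lie above sinusoidal endothelial-like cells (0.476%), and the small identities have wide intervals.

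Cycling Kupffer-like cells were then compared with the 2185 non-cycling Kupffer-like cells, over 727671 and 9405708 summed UMIs. A gene was read with at least 50 UMIs over both sides and called higher or lower from a 2-fold difference in CPM (counts of a gene per 1000000 UMIs of its side), so a gene low in resting cells could be read only by being high in cycling ones. Of 9448 genes read, 863 (9.13%) were higher and 439 (4.65%) lower, with a median log2 fold of 0.08. Among the 9163 genes with at least 50 UMIs in non-cycling cells alone, 701 (7.65%) were higher and 434 (4.74%) lower, and list counts below are given over such genes. Single genes with fewer UMIs in non-cycling cells are also named below, and their direction was fixed by the filter. The choice of cells with a sum of 0 also removes other cycle transcripts from the non-cycling side.

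Genes of origin licensing and the replication fork were higher together. Of the 36 in the list, 20 had at least 50 UMIs in non-cycling cells alone and 20 of these were higher, with a median of 3.03 on the log2 scale over the 20. Mcm5, a helicase subunit, had 179 UMIs in 53 of 75 cycling cells (median 2, highest 10) and 89 UMIs in 2.84% of non-cycling cells. This was 246 against 9.46 CPM, 26.0-fold higher (20.1 to 33.9). Pcna, the sliding clamp of the polymerases, had 761 UMIs in 68 cycling cells and was already seen in 43.9% of non-cycling cells. Its level was 1046 against 157 CPM, 6.66-fold higher (6.09 to 7.27). Mcm3, whose promoter is printed above, was 6.92-fold higher (5.61 to 8.49), Mcm7 17.1-fold (12.8 to 23.1) and the origin factor Mcm10 56.7-fold (30.7 to 113). Gmnn (geminin), which blocks relicensing, was 5.67-fold higher (4.52 to 7.09), and Cdt1, the licensing factor it binds, 10.9-fold (8.32 to 14.2).

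The supply of nucleotides and chromatin moved the same way. Of 16 nucleotide synthesis genes, 10 had at least 50 UMIs in non-cycling cells and all 10 of these were higher. Rrm1, the large subunit of ribonucleotide reductase, was 18.7-fold higher (15.2 to 23.0) with UMIs in 61 cycling cells, and Tk1 (thymidine kinase) 13-fold (10.4 to 16.2). Among 26 chromatin assembly genes, 15 of 16 were higher by the same reading. H2afz, a histone variant, had at least 3 UMIs in each of the 75 cycling cells (median 17, highest 58) and was 5.90-fold higher (5.54 to 6.28). Uhrf1, which guides methylation to new DNA, was 84.5-fold higher (46.9 to 165), against 5.83-fold (4.71 to 7.2) for the methyltransferase Dnmt1. With 13 UMIs in non-cycling cells, Uhrf1 was read only through cycling cells. The exception was Hist1h2bc, a histone H2B gene, which was lower at 53.6 against 181 CPM (ratio 0.296, 0.210 to 0.407).

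Most genes of chromosome segregation were too rare in non-cycling cells to be read by these alone. By non-cycling UMIs 3 of 4 kinetochore genes (of 27 in the list) and 8 of 9 spindle and cytokinesis genes (of 38) were higher. A further 10 and 15 were read only through their UMIs in cycling cells, so that their direction was fixed by the filter. Stmn1 (stathmin), which destabilises microtubules, had 916 UMIs in 74 of 75 cycling cells (median 12, highest 42) and 94 UMIs in 3.11% of non-cycling cells. It stood at 1259 against 9.99 CPM, 126-fold higher (102 to 157). Tuba1b and Tubb5, tubulin subunits seen in over 50% of non-cycling cells, were 8.48-fold (7.94 to 9.05) and 8.72-fold higher (8.13 to 9.34). Of genes read in this way, Cenpe, a kinetochore motor, was 105-fold higher (60.2 to 199). Kif11 had 121 UMIs against 5 (313-fold, 130 to 981), and Plk1 69 against 8 (111-fold, 53.5 to 268).

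Chromosome compaction genes and the nuclear lamina followed, with 12 of 13 higher by non-cycling UMIs. Smc2 and Smc4, the core of condensin, were 13.5-fold (10.8 to 16.9) and 10.4-fold higher (8.95 to 12.0). Ncapg, another condensin subunit, had 59 UMIs in 33 cycling cells and 0 in non-cycling cells, at least 254-fold higher against a floor of 3 UMIs over the group. It too was read only through cycling cells. Of the checkpoint genes 6 of 7 were higher, among them Mad2l1 at 12.7-fold (8.62 to 18.7). Pttg1 was the gene within 2-fold here, with 41 UMIs in 27 cycling cells (36.0%) and 686 UMIs in 23.7% of non-cycling cells (ratio 0.773, 0.549 to 1.06).

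Among regulators the response was uneven. Cdk1, the kinase of mitosis, had 152 UMIs in 56 of 75 cells and was 24.6-fold higher (18.6 to 32.6), and its cyclins Ccnb1 and Ccnb2 were 129-fold (51.9 to 415) and 46.9-fold higher (27.9 to 82.6). These cyclins, with 5 and 19 UMIs in non-cycling cells, were read only through cycling cells, so their direction was fixed by the filter. Cdk2 and Cdk4, which act earlier, were 3.33-fold (2.39 to 4.57) and 3.07-fold higher (2.33 to 3.99). The D-type cyclins, which link growth signals to the cycle, stayed within 2-fold at ratios of 0.759 (0.613 to 0.931) for Ccnd1 and 1.90 (1.45 to 2.44) for Ccnd3, and 0.725 (0.260 to 1.63) for Ccnd2, which had 6 UMIs. Kinase inhibitors went separate ways. Cdkn2c was 17.4-fold higher (11.4 to 27.0) and Cdkn1a, the p53 target p21, 2.18-fold higher (1.91 to 2.48) with UMIs in 49 cycling cells, while Cdkn1b had a ratio of 0.988 (0.806 to 1.20). The highest cell held 40 of the 266 Cdkn1a UMIs on the cycling side. With 40 UMIs in non-cycling cells, Cdkn2c was also read only through cycling cells. E2f1 and Rbl1, an activator and a repressor of cycle genes, were 4.39-fold (3.31 to 5.77) and 8.19-fold higher (6.06 to 11). By non-cycling UMIs 5 of 12 E2F, Rb and DREAM regulators and 8 of 14 cyclins, kinases and inhibitors were higher.

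Outside the cycle lists 701 of 9262 genes (7.57%) were higher and 438 (4.73%) lower. Iqgap3, a scaffold protein, had 60 UMIs against 2, a ratio of 388 (103 to 3275), and Lockd, a noncoding RNA next to Cdkn1b, had 66 UMIs in 41 cycling cells against 3 (284, 93.2 to 1414). Diaph3, a formin of the cleavage furrow, was 70.4-fold higher (34.2 to 163), with 9 UMIs in non-cycling cells. Iqgap3, Lockd and Diaph3 were read only through cycling cells, so their direction was fixed by the filter. A pair of Schlafen genes, a family of growth-regulatory proteins, went opposite ways. Slfn9 had 119 UMIs in 49 of 75 cycling cells and was 21.1-fold higher (15.6 to 28.6). Slfn5 had 29 UMIs in 14 cycling cells (18.7%, highest 7) and 2973 UMIs in 59.1% of the shallower non-cycling cells. At 39.9 against 316 CPM it was lower, with a ratio of 0.126 (0.0843 to 0.181), and with non-cycling cells of matched UMIs its log2 fold was -3.04. Reads may be split between these related genes, and how the counting treated them is not given in the sources used here. The haemoglobin genes Hbb-bs and Hba-a1 were lower too, at 2 UMIs against 774 and 1 against 324, and the UMIs of the non-cycling side sat in 1.14% and 0.732% of its cells. Without the highest 5% of doublet scores the log2 fold of Hbb-bs moved from -4.90 to -1.77.

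Kupffer markers stayed within 2-fold in the cycling Kupffer-like cells. The cells were placed by nearness to clusters named from these markers, so a cycling cell that had lost them would not be counted here. All 10 markers lay within 2-fold, as did most genes, since 9.13% of all genes read were higher and 4.65% lower. The median log2 fold of the markers was -0.41, against 0.08 over all genes read. Their summed level was 20538 CPM in cycling and 27306 CPM in non-cycling cells. Clec4f, a Kupffer-restricted lectin, had a median of 32 UMIs per cycling cell and 16 per non-cycling cell, in 74 of 75 and 98.4% of cells. In non-cycling T-like cells, which should lack it, 9.66% had a UMI of Clec4f at a median of 3309 UMIs per cell. Its level was 3651 against 4868 CPM (ratio 0.750, 0.721 to 0.780). Timd4, a receptor for dying cells that marks long-resident macrophages, was seen in 66 of 75 cycling cells and had a ratio of 0.628 (0.555 to 0.709). Csf1r, the receptor for the macrophage growth factor, had a ratio of 0.614 (0.572 to 0.659). Marco, a scavenger receptor, differed from the others at 1153 against 579 CPM (1.99, 1.85 to 2.14), in 78.7% against 44.5% of cells, and in 2.43% of non-cycling sinusoidal endothelial-like cells. It passed 2-fold against non-cycling cells of matched UMIs (2.07) and when scaled by UMIs outside the cycle lists (2.03). It also did so with at least 20 UMIs of the rule genes (2.04) and without cells that held markers of another class after thinning (2.09). In the other alternatives it stayed within 2-fold. Of the 10 monocyte markers 4 were read, and these were within 2-fold: Lyz2 (0.560, 0.533 to 0.589), Ms4a6c (0.911), Plac8 (0.967) and Fn1 (0.891). The remaining 6 were not read, with 19 UMIs of Ccr2 in 1 cell, 27 of Cx3cr1 in 3 cells, 1 of Ly6c2, and 0 of Chil3, F13a1 and S100a4.

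**Figure D3:**
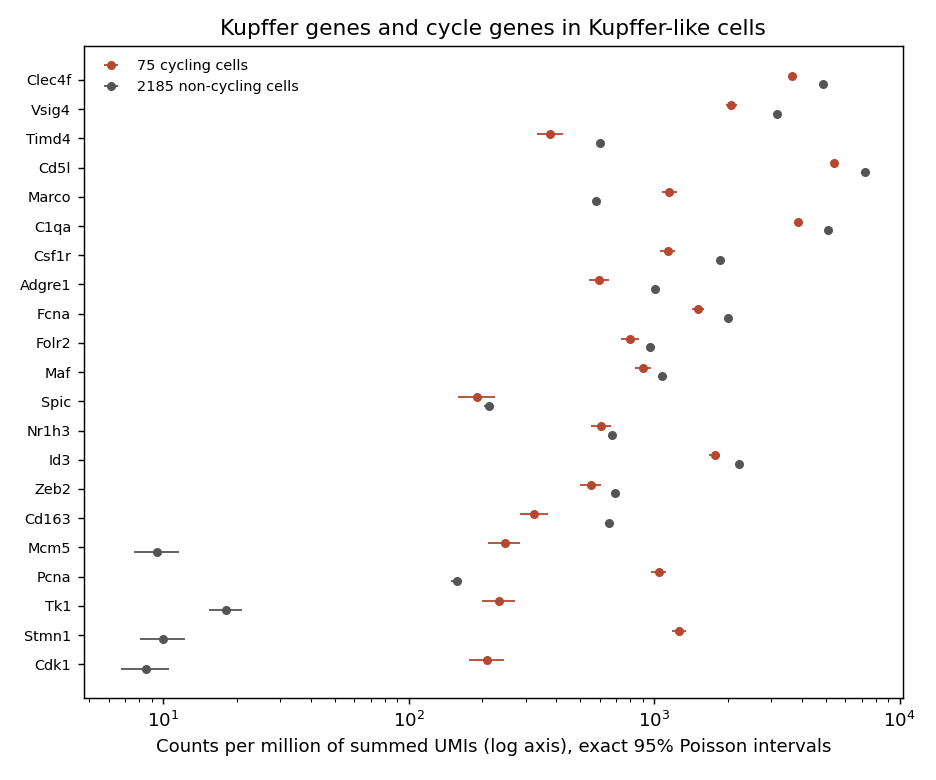
The x axis (log) gives CPM of summed UMIs with exact 95% Poisson intervals, for 75 cycling (red) and 2185 non-cycling (grey) Kupffer-like cells; each row is a gene. The Kupffer genes at the top lie within 2-fold on both sides except Cd163 (326 against 658 CPM), with Marco at 1153 against 579 CPM, and Mcm5, Pcna, Tk1, Stmn1 and Cdk1 at the bottom lie far apart.

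Of 27 Kupffer identity and macrophage regulator genes read, 26 were within 2-fold, as were most genes, with a median log2 fold of -0.34. Cd163, a haemoglobin scavenger receptor, was lower (ratio 0.495, 0.433 to 0.564). That call ended with the mean of each cell's CPM (0.537). Lineage factors stayed close, with ratios of 0.838 for Maf, 0.904 for Nr1h3 and 0.891 for Spic. None of 17 antigen presentation genes was called, and their median log2 fold was -0.45. Among 25 cytokines and chemokines read, Cxcl13, which attracts B cells, was lower (0.476, 0.384 to 0.584), a call that ended without the highest doublet scores (0.507).

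Metabolism and stress genes were set beside all genes, since the cells were selected on cycle genes. The median log2 fold over all genes read was 0.08. Of genes with at least 50 UMIs in non-cycling cells, 7.65% were higher and 4.74% lower. None of 16 glycolysis genes and none of 18 oxidative phosphorylation genes reached 2-fold, with median log2 folds of 0.06 and 0.38. Of 24 genes of ribosome biogenesis and Myc targets 7 were higher, led by Ran at 4.04-fold (3.61 to 4.52) and Ranbp1 at 3.95-fold (3.43 to 4.53), which run nuclear transport and spindle assembly. Polr1b, a subunit of RNA polymerase I, was lower at 1 UMI against 53 (0.244, 0.00606 to 1.42). Of 20 immediate early genes 3 were lower: Atf3 (0.461, 0.379 to 0.555), Klf4 (0.458, 0.386 to 0.541) and Btg2 (0.482, 0.436 to 0.531), an inhibitor of proliferation. The list median was -0.56, and the call for Btg2 ended with the mean of each cell's CPM (0.553).

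Markers of other classes were looked for in the same cells. At least 3 sinusoidal endothelial markers were seen in 32 of 75 cycling (42.7%) and 397 of 2185 non-cycling Kupffer-like cells (18.2%). After thinning these were 6 of 74 (8.11%) and 64 of 1630 (3.93%). At least 3 monocyte markers were seen in 50 cycling (66.7%) and 737 non-cycling cells (33.7%), and in 16.2% and 15.3% after thinning. Their summed level was 2820 against 4521 CPM, and 1602 of the 2052 UMIs on the cycling side were of Lyz2. At least 3 plasmacytoid dendritic markers were seen in 31 (41.3%) and 508 cells (23.2%), and in 0 of 74 and 4.79% after thinning. For hepatocyte markers the shares were 29.3% and 16.2%, and 2.70% and 4.6% after thinning. In all, the cycling cells held 409 UMIs of the 10 sinusoidal markers, of which 186 were in 5 cells, the median cell had 3 and 6 cells had 0. The summed level was 562 against 445 CPM for the sinusoidal markers and 348 against 535 CPM for hepatocyte markers, and T and NK or ILC1 markers had 9 and 2 UMIs in all. The endothelial receptors Kdr (2.63-fold, 1.86 to 3.65) and Flt4 (2.11-fold, 1.16 to 3.60) and the ligand Bmp2 (2.82-fold, 2.08 to 3.77) were called higher, with UMIs of Kdr in 13 of 75 cells. Without the highest 5% of doublet scores 0 genes of these endothelial lists were higher. The part of mixed droplets in the other differences was not tested beyond this alternative and those without cells with markers of a second class, given below.

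The Kupffer-like cells fell into 4 clusters of non-cycling cells, and cycling cells were close to each of them. The cluster led by Il1b, Cd83, Marco and Rgs1 had 31 cycling cells of 819 (3.79%, 2.59 to 5.33), the one led by Il6, Il10, Nlrp3 and Cxcl2 had 21 of 653 (3.22%, 2.0 to 4.87), and the one led by Kcna2, Wfdc17 and Aif1 had 21 of 649 (3.24%, 2.01 to 4.90). These intervals overlap. The last cluster had a median of 971 UMIs per non-cycling cell and 2 cycling cells of 382 (0.524%, 0.0635 to 1.88), and after thinning 3 of the 35 cells that were deep enough.

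Replication and mitosis transcripts varied from cell to cell among the 104. The 36 replication genes had a median of 31 UMIs per cycling cell (1 to 107), and the 81 mitosis genes, none of which chose the cells, a median of 120.5 (8 to 361). Mitosis UMIs were above replication UMIs in 100 cells. The lists differ in length and make-up, so this order does not give the phase of a cell. In cycling Kupffer-like cells Tuba1b, Tubb5 and Stmn1 held 1497, 1371 and 916 of the 8465 mitosis UMIs. Over the 104 cells the mitosis share of replication and mitosis UMIs had a median of 80.5% (42.9 to 97.6), with 3 cells under 50% and 54 over 80%. In non-cycling cells both were low, at medians of 2 and 6 UMIs with a median share of 77.8%, so the share by itself did not set cycling cells apart. The median share was 78.9% in Kupffer-like, 87.3% in sinusoidal endothelial-like, 79.1% in T-like cycling cells and 86.1% in those nearest to the F13a1 cluster. The 3 cells under 50% were all Kupffer-like, and the share ran from 56.3 to 96.9% in sinusoidal endothelial-like and from 54.2 to 95.7% in T-like cells. The summed levels in Kupffer-like cells were 3826 against 467 CPM for replication and 11633 against 1200 CPM for mitosis.

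**Figure D4:**
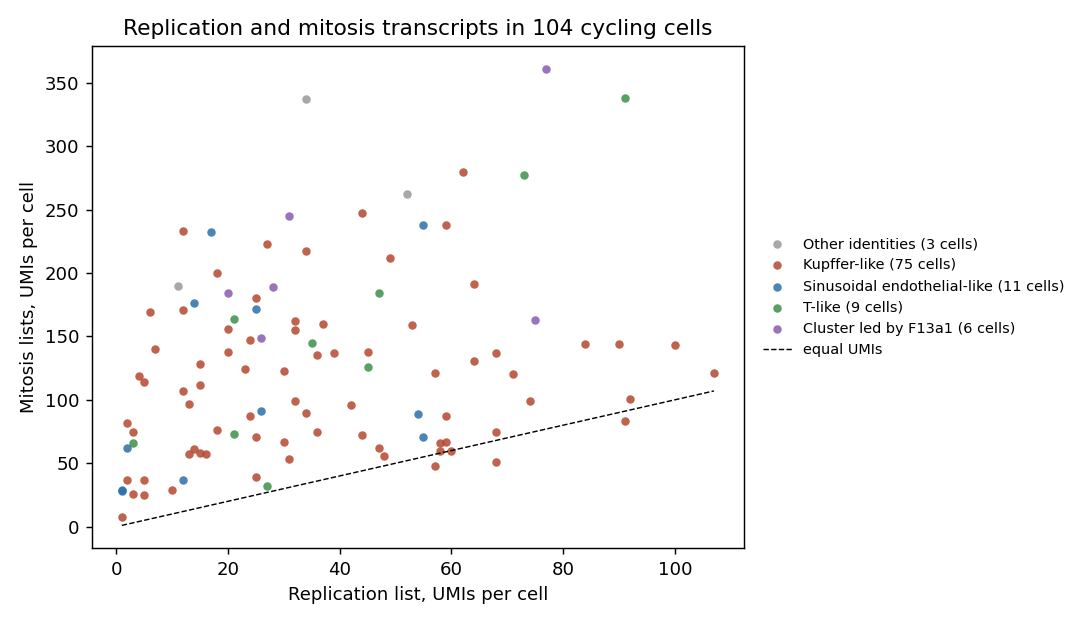
Each point is a cycling cell, with UMIs of the 36 replication genes on the x axis and of the 81 mitosis genes on the y axis; colours mark identities and the dashed line equal UMIs. In 100 of the 104 cells the point lies above the line, and this holds for each of the 11 sinusoidal endothelial-like and 9 T-like cells.

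Kupffer-like cycling cells were divided into 3 ranges of 25 cells by the mitosis share, at 42.9 to 68.0%, 69.1 to 83.5% and 84.4 to 97.6%. These are ranges and not types, since 32 cells lay within 5 points of a boundary. The median UMI number was 10038, 7924 and 9796. Genes outside the score differed between the outer ranges, as a description, and those named are among the largest differences. A gene needed at least 20 UMIs over both ranges, so a gene rare in 1 range was read only through the other. The share of all read genes that differed was not counted. Ccnb2 had 42 UMIs in 23 cells of the mitosis range and 5 UMIs in 5 cells of the replication range (log2 3.12), and Cdc25b, the phosphatase that activates Cdk1, had 20 UMIs in 13 cells against 1 (log2 4.37). On the other side stood Ccne2, a cyclin of replication entry, with 1 UMI against 27 in 20 cells (log2 -4.71), E2f1 with 7 against 49 (log2 -2.76) and Uhrf1 with 9 against 56 (log2 -2.59). Hist1h2bc and Slfn5, both lower in cycling cells as a whole, had 24 against 3 and 21 against 3 UMIs, with most in the mitosis range. Kdr, a sinusoidal endothelial marker, had 28 UMIs in 6 cells against 1.

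The 11 cycling sinusoidal endothelial-like cells were compared with 2223 non-cycling ones over 67858 and 10881238 UMIs. With few cells, a gene was read with at least 5 UMIs seen in or expected for the cycling cells, a comparison added after the data had been seen. Of 3657 genes read, 736 (20.1%) were higher and 297 (8.12%) lower. But a gene read only through its UMIs in cycling cells had to have a ratio above 1, and so could not be called lower. List counts are therefore given over the 2543 genes whose level in non-cycling cells gave at least 5 UMIs expected, of which 116 (4.56%) were higher and 297 (11.7%) lower. Outside the cycle lists 98 of 2519 (3.89%) were higher and 295 (11.7%) lower. By that reading 5 of 5 chromatin assembly genes, 3 of 3 spindle genes and 5 of 5 condensin, cohesin and lamina genes were higher, and Pcna was the only replication gene and was higher. Of 6 cyclins, kinases and inhibitors 1 was higher and 2 were lower (Cdkn1c and Ccnd2). The single nucleotide synthesis gene was within 2-fold, and the single genes of the DNA damage, kinetochore and checkpoint lists were higher. Cycle genes outside this reading were read through cycling cells alone. Cdk1 had UMIs in each of the 11 cells (1 to 8) against 2.25% of non-cycling cells (109-fold, 68.4 to 172), and Stmn1 was 93.9-fold higher (75.7 to 116) with UMIs in 10 cells. Pcna was 6.81-fold higher (5.01 to 9.06) and H2afz 5.0-fold (4.40 to 5.66).

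The 10 sinusoidal markers, which also placed these cells, were all within 2-fold, as were most genes read. Their median log2 fold was -0.54, against 0.19 over all genes read. Kdr, the VEGF receptor, Fcgr2b, Stab1 and Ehd3 had UMIs in each of the 11 cells, and Stab2, the hyaluronan receptor, had a ratio of 0.877 (0.666 to 1.14). Kupffer markers had 9 UMIs in all. Of 20 zonation and angiocrine genes read 7 were lower, among them Lifr (0.322, 0.211 to 0.473) and Msr1, a scavenger receptor (0.387, 0.186 to 0.713), and Fabp4, a fatty acid carrier, was higher (2.11, 1.61 to 2.71). Of 19 immediate early genes 11 were lower, such as Fos (0.416, 0.313 to 0.541), Egr1 (0.213, 0.113 to 0.365) and Dusp1 (0.332, 0.241 to 0.446). Ccnd2, a D-type cyclin seen in 83.9% of non-cycling cells, had UMIs in 5 of 11 cells and was lower (0.393, 0.243 to 0.601). The p53 targets Cdkn1a (2.41-fold, 1.84 to 3.11) and Phlda3 (11.9-fold, 5.0 to 24.2, from 8 UMIs in 5 cells) were higher, as was Cdkn2c (32.7-fold, 19.7 to 52.0). Cdkn1a had 60 UMIs in 7 of the 11 cells, and the highest cell held 22 of them. Slfn9 was higher (63.0-fold, 40.8 to 95.3) and Slfn5 lower (0.25, 0.120 to 0.460), as in Kupffer-like cells. Phlda3, Cdkn2c and Slfn9 were read through cycling cells alone. Pttg1 had 1 UMI against 605 and was not read.

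The 9 cycling T-like cells had 94032 UMIs and the 207 non-cycling ones 778915. Of 3954 genes read by the same rule, 803 (20.3%) were higher and 650 (16.4%) lower. Few cycle genes had 50 UMIs in non-cycling cells, which here also gives 5 UMIs expected in cycling cells, and by this reading 153 of 2467 genes (6.2%) were higher and 577 (23.4%) lower, and outside the cycle lists 132 of 2438 (5.41%) and 572 (23.5%). Of these, 7 of 7 chromatin assembly genes, 7 of 7 condensin, cohesin and lamina genes and 3 of 3 spindle genes were higher. Other cycle lists were not uniform. Of 4 checkpoint genes 2 were higher, and of 3 cyclins, kinases and inhibitors 0 were higher and 2 lower. The single E2F, Rb and DREAM gene, Rbl2, was lower. Of 2 DNA damage genes 0 were higher, and Cdkn1a was lower at 3 UMIs against 89, unlike in Kupffer-like and sinusoidal endothelial-like cells. Its 3 UMIs were in 2 of 9 cycling cells (22.2%). The 89 UMIs were in 13.5% of non-cycling cells, with up to 20 in a cell. This difference between identities was not tested. Pttg1 was called lower, with 2 UMIs against 52 (0.319, 0.0376 to 1.21), unlike in Kupffer-like cells, where it stayed within 2-fold; the difference between these was not tested. Stmn1 had 150 UMIs in 9 of 9 cells (1 to 37) against 12 in 5.80% of cells (104-fold, 57.6 to 205), Rrm1 had UMIs in 9 cells (24.9-fold, 11.8 to 57.0), and Kif11 had 26 UMIs against 0, at least 71.8-fold higher. Stmn1, Rrm1 and Kif11 were read through cycling cells alone, so their direction was fixed by the filter.

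All 9 cells lay closest to a cluster led by Gzma, Nkg7, Il2rb and Ccl5, in which T and NK markers tied and which held 171 of the 207 non-cycling cells; none lay closest to the other T-like cluster, led by Lef1, Il7r, Ccr7 and Tcf7. The cycling cells carried T-cell receptor genes, with Cd3g and Trac in 9 of 9 cells. Cd4, the helper co-receptor, had 26 UMIs in 8 of 9 cells against 17.4% of non-cycling cells (4.31-fold, 2.57 to 7.05), and Gata3, a helper T and innate lymphoid factor, was 2.61-fold higher (1.56 to 4.22). Cd8a and Cd8b1 had 0 UMIs in the 9 cells and 45 and 77 in non-cycling cells. The cytotoxic granzyme Gzma had 0 UMIs against 969 and was at least 39.0-fold lower. Il7r, a survival cytokine receptor of resting T cells, was lower at 4 UMIs against 328 (0.101, 0.0274 to 0.261), and so was the chemokine Ccl5 with a ratio of 0.236 (0.189 to 0.292). At least 3 NK or ILC1 markers were seen in 1 of 9 cycling and 111 of 207 non-cycling cells, and the summed level of these markers was 468 against 4280 CPM. A difference in the kinds of lymphocyte on each side and a difference with cycling therefore cannot be told apart here.

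Among the other T-like differences, 5 of 10 glycolysis genes read by non-cycling UMIs were higher, with Gapdh at 3.37-fold (2.82 to 4.02), Pgk1 at 3.66-fold (2.37 to 5.54) and Ldha at 2.85-fold (2.11 to 3.81). Odc1, the first enzyme of polyamine synthesis, was 4.38-fold higher (2.86 to 6.61). Of 19 immediate early genes read in this way 13 were lower, including Fos (0.184, 0.0913 to 0.332) and Jun (0.0781, 0.0160 to 0.230). Ccnd2 was lower (0.230, 0.130 to 0.376), as in sinusoidal endothelial-like cells, and so was Cdkn1b (0.298, 0.108 to 0.662), an inhibitor of cyclin-dependent kinases. Markers of Kupffer cells summed to 138 against 915 CPM and those of sinusoidal endothelial cells to 957 against 2620 CPM, and their part in these differences was not tested.

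**Figure D5:**
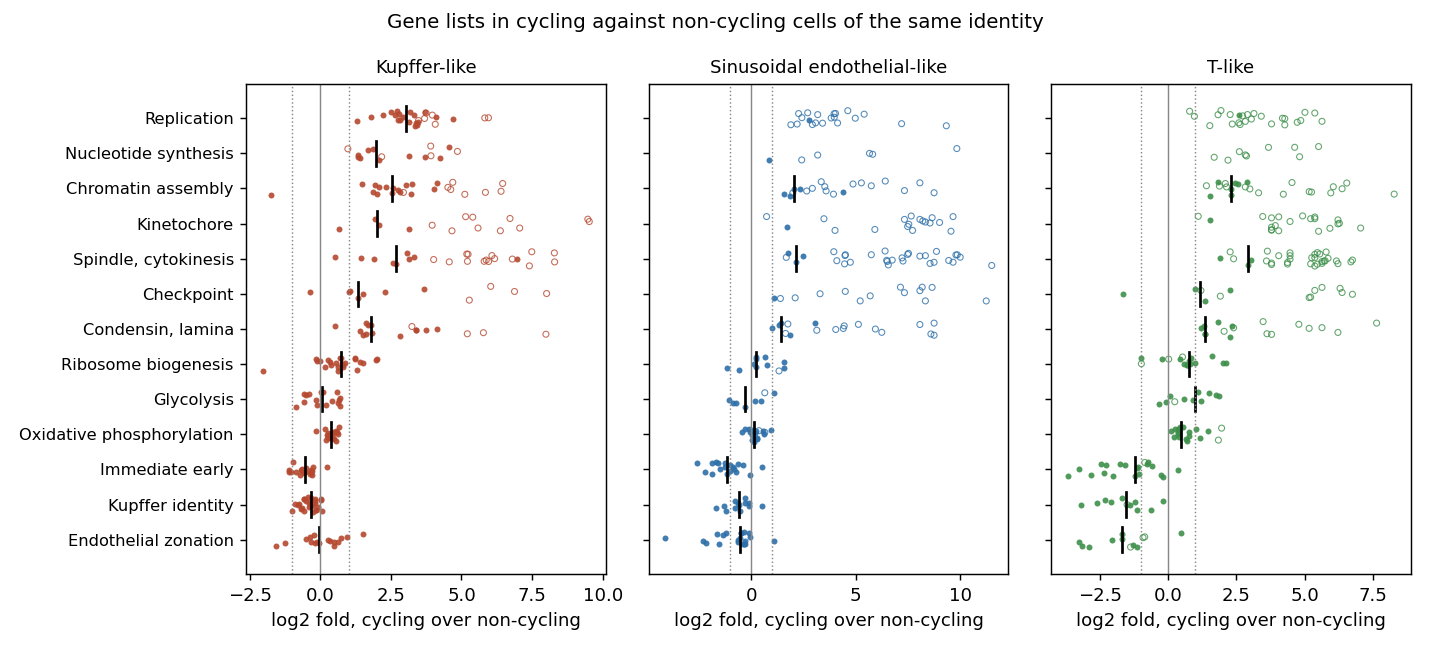
Points are genes read in each list, in Kupffer-like, sinusoidal endothelial-like and T-like cells. The x axis gives the log2 fold of cycling over non-cycling cells. Filled points were read by non-cycling cells alone, and hollow points are the other genes read. Hollow points of sinusoidal endothelial-like cells lie to the right by the filter. In Kupffer-like and T-like cells this holds for genes rare in non-cycling cells, but not for hollow points near the limit for filled ones. In T-like cells 9 Kupffer identity and macrophage regulator genes were lower, 8 of them by non-cycling cells alone. Black bars are medians of at least 3 filled points and dotted lines 2-fold. The filled replication points have a median of 3.03 in Kupffer-like cells, filled chromatin assembly points lie at medians of 2.55, 2.02 and 2.30, and immediate early genes at -0.56, -1.18 and -1.20.

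Of 1631 genes that non-cycling cells alone let be read in all 3 identities, 31 (1.90%) were higher in each. The genes of the rule were left out of the 1631 beforehand. The cycle lists held 20 of the 1631 and 15 of the 31, among them Pcna, H2afz, Hmgb2, Tuba1b, Smc3 and Tmpo (a lamina protein). The 16 others, named after their values were seen, included Dek, Cbx3, Hmgn1 and Smarca5 (chromatin), Ran with Ranbp1 (the Ran gradient), Snrpd1 and Hnrnpab (RNA processing) and Ptma. The 28 promoters of the 25 matched genes of the 31 held a CHR element in 10, a CCAAT box in 19 and an E2F element in 5 windows, and among the 14 promoters of those outside the cycle lists the numbers were 5, 9 and 3. Among the 1666 promoters of all genes read in this way the shares were 10.1%, 35.5% and 2.76%. With so few promoters these counts are a description only.

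The remaining 9 cycling cells are described without a comparison. The 6 cells nearest to the cluster led by F13a1 and S100a4 had monocyte markers at 2666 CPM, against 11195 CPM in its non-cycling cells. Plac8 was seen in 5, Ms4a6c in 6 and Ccr2 in 4 of them, Lyz2 had 58 UMIs (619 against 8259 CPM), and F13a1, Ly6c2 and Chil3 had 0. Dendritic markers summed to 10378 against 7454 CPM, of which 9162 CPM were H2-Eb1, an antigen presentation gene. Cd209a (587 against 99.5 CPM), Itgax (245 against 76.2 CPM) and Flt3 (128 against 83.6 CPM) also stood above the non-cycling cells, while Clec9a, Zbtb46, Cd24a and Wdfy4 stood below them and Xcr1 and Ccr7 had 0. By markers alone 2 of the 6 were monocyte-like, 2 Kupffer-like, 1 conventional dendritic-like and 1 hepatocyte-like, so these cells are given no cell type. The 2 cells of the Colec10 cluster had 27552 and 33287 UMIs and carried all 10 stellate markers, with 1047 UMIs (17209 against 2677 CPM in the non-cycling cells of the cluster), led by Dcn (591 UMIs) and Ecm1 (166 UMIs). They also carried all 10 sinusoidal endothelial markers, with 681 UMIs (11194 against 18633 CPM), and by markers alone both were sinusoidal endothelial-like. The vascular endothelial-like cell held 14 UMIs of Kdr, 7 of Rspo3 and 0 of Vwf, and was sinusoidal endothelial-like by markers alone.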

How the data were processed

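The deposited table gives raw UMI counts, not normalized, for 22508 genes; Cell Ranger 2.1.1, Seurat 3.1 and GRCm38 are named, per the submitters' processing notes, without a role. Barcode endings were read as replicate numbers. The members and gene lists were chosen with earlier results of these data known. Non-cycling cells were clustered with scanpy 1.11.5 in Python 3.11.15 (2000 variable genes without those of the cell cycle lists, 30 principal components, 15 neighbours, Leiden resolution 1) and named from 162 markers; other cells took the class of their 15 nearest non-cycling cells. UMIs were summed per side and scaled to CPM, and a value of 0 was set to 3 UMIs for a fold. Ratios have exact binomial intervals conditional on the sum, from scipy 1.17.1, levels Poisson intervals and shares Clopper-Pearson intervals. CPM of one gene were compared between cells, never between genes, but the UMIs of the replication and mitosis lists were set against each other within cells. The procedure was checked on simulated data. Genes named are rule genes, up to 4 of each list by size, the 10 largest changes in each direction outside the cycle lists and all markers, and a selection is given with further list members that were chosen after their values were seen. Scrublet called 9 of 6765 cells (0.133%), a share so low that the calling has not worked, so no doublet was removed and the highest 5% of scores were left out as an alternative. No correction for free RNA was made. Some genes of the lists are not reported here by name. Alternatives covered thresholds, thinning, scaling, matching on UMIs, filters and cells with markers of a second class.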

Additional observations from a re-analysis of the deposited data

How the results depend on the processing

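With 1 library no replicate could be left out. No paired analysis was possible because only 1 library held cycling cells and no test was run. The number of cycling cells was 132 at a threshold of 5 UMIs, 82 at 20 and 101 at 10% mitochondrial UMIs. At resolution 0.5 the T-like count went from 9 to 0, since all 9 became NK or ILC1-like, and by markers alone the monocyte-like count went from 6 to 2. The Kupffer-like share moved from 3.0% to 3.92% with thinning. In Kupffer-like cells 1549 genes were higher and 660 lower with at least 10 UMIs over both sides, as more genes were read. With at least 5 UMIs seen or expected in cycling cells, an alternative chosen after seeing the data, 1265 were higher and 347 lower, so higher calls were 78.5% in place of 66.3% of all calls. In the other alternatives the counts were 808 to 910 higher and 325 to 575 lower. Leaving out each cell with markers of a second class kept 5 cycling Kupffer-like cells and turned the sign of Cxcl13 (log2 0.58), Pced1b (2.20) and Serpina3f (2.09). A version chosen after seeing the data, which reads these markers after thinning, kept 66 cells with 828 genes higher and 458 lower. Cd163 was within 2-fold under 4 alternatives (0.505 to 0.537). Marco passed 2-fold under those named with it above (2.03 to 2.09). Ccnd2 was lower without the highest doublet scores (0.428), and Hbb-bs then moved from -4.90 to -1.77 on the log2 scale; the cause was not tested. Counts of the other comparisons moved more. With at least 50 UMIs over both sides 1680 genes were higher and 741 lower in sinusoidal endothelial-like cells, and 222 were higher in T-like cells. Over genes read by non-cycling cells alone, a reading chosen after seeing the data, 116 genes were higher in sinusoidal endothelial-like cells and 153 in T-like cells, as fewer genes were read. Against the 17 non-cycling T-like cells of matched UMIs 1364 genes were lower, and higher calls were 43.3% in place of 55.3% of all calls, against 63.1% when scaled by UMIs outside the cycle lists and 63.7% without the highest doublet scores. Depth limits most mitosis genes, which had few UMIs in non-cycling cells.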

Other observations

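Between the non-cycling and the cycling cells lay 444 cells with 1 to 9 UMIs of the 10 rule genes, and 327 of these had 1 UMI. Of the cells with 1 UMI, 171 were Kupffer-like, and the median was 6163 UMIs per cell. A sum of 4 UMIs occurred in 13 cells, of which 10 were Kupffer-like.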
